A study of Mus musculus with 9 samples.

Results

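Bile acid synthesis enzymes are the 10 genes Cyp7a1, Cyp8b1, Cyp27a1, Cyp7b1, Akr1d1, Hsd3b7, Baat, Slc27a5, Acox2 and Amacr, chosen by gene symbol from the 24541 symbols measured in mouse liver. All 10 were listed and all 10 were expressed well enough to be tested. Messenger RNA was sequenced from livers of Balb/c mice aged 9 weeks, with 3 livers in each of 3 groups. LRH1+APAP livers came from mice given acetaminophen (APAP) together with LRH1, the nuclear receptor encoded by Nr5a2. APAP livers came from mice given acetaminophen, and vehicle livers from mice given vehicle. No group received LRH1 without APAP, so LRH1 is described in APAP-treated mice alone. The labels used here state no dose, time after treatment, sex or route and promoter for LRH1 delivery.

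Hepatocytes turn cholesterol into bile acids by a classic pathway, which starts in the endoplasmic reticulum with Cyp7a1, and an alternative pathway, which starts with oxidation of the side chain by Cyp27a1 in mitochondria. The ring is then remodelled, the side chain is shortened in peroxisomes, and the product is joined to taurine or glycine before it is secreted into bile. Bile acids repress their own synthesis through the receptor Nr1h4 (FXR) and the repressor Nr0b2 (SHP), which acts on LRH1 at the promoters of Cyp7a1 and Cyp8b1.

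The level of Nr5a2 itself checked the labels. Nr5a2 stood at 206, 83.8 and 113 FPKM (fragments scaled to transcript length and to the mapped fragments of the library) in LRH1+APAP livers 1 to 3, at 10.8, 9.29 and 10.3 FPKM in APAP livers, and at 14.7, 13.1 and 12.3 FPKM in vehicle livers. Every LRH1+APAP liver was above all livers of the other groups. Spearman correlations across the 12202 genes tested were 0.989 to 0.991 among LRH1+APAP livers, 0.949 to 0.977 among APAP livers and 0.99 among vehicle livers, so that the APAP livers resembled each other least. APAP livers 1 and 2 were the farthest apart within a group, at 0.949. APAP liver 1 correlated at 0.974 to 0.98 with LRH1+APAP livers and at 0.942 to 0.948 with vehicle livers. APAP liver 2 correlated least of the APAP livers with the other groups, at 0.931 to 0.938 with LRH1+APAP livers and at 0.864 to 0.87 with vehicle livers. Values were compared with limma on log2(FPKM + 1), with Benjamini-Hochberg adjustment over all genes tested and a threshold of 0.05. A difference on this scale understates the change of low genes. The median over all genes was 0.25 for APAP against vehicle and 0.22 for LRH1+APAP against vehicle. These medians dropped to 0.04 and 0.02 after upper-quartile scaling, a shift that applies to each member's difference as well. APAP against vehicle had 5835 genes higher and 1845 lower, which became 3810 and 3227 after upper-quartile scaling and 3126 and 3699 after quantile normalization. LRH1+APAP against vehicle had 4780 higher and 979 lower, which became 2358 and 2396, and 1899 and 2624.

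FPKM is per length of transcript, which allows a rough ranking of genes. Other differences between genes in how fragments were assigned were not checked. In vehicle livers Slc27a5, Cyp8b1 and Cyp27a1 led with 205, 189 and 176 FPKM on average, and neighbours among these overlapped between livers. Hsd3b7, Baat, Akr1d1, Acox2 and Amacr followed in that order with 154, 121, 86.7, 75.3 and 57.5 FPKM, each above the next in every liver. Cyp7a1 and Cyp7b1, the enzymes that add the hydroxyl group at carbon 7 in the classic and the alternative pathway, were lowest with 35.8 and 27.1 FPKM, and their livers overlapped. In APAP livers Cyp7a1 was last, with all 3 livers below every value of Akr1d1, the next lowest. LRH1+APAP livers had Hsd3b7 first and Cyp7b1 last, and Cyp7a1 stood between Acox2 and Amacr with values that overlapped both.

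Cyp7a1 was also the most variable member among vehicle livers. Its coefficient of variation was 40.2% in LRH1+APAP, 31.8% in APAP and 42.5% in vehicle livers. Of all genes averaging 5 FPKM or more in vehicle livers, 99.1% varied less. Slc27a5 varied by 6.88%, 15.9% and 2.47% in the same order of groups. Among APAP livers, liver 1 held the highest value of 9 of the 10 members, while it held the highest value of 31.7% of all genes tested.

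All 10 members lie on different parts of the genome apart from Cyp7a1 and Baat, both on chromosome 4, and Hsd3b7 and Slc27a5, both on chromosome 7 (build mm10, positions as deposited). Cyp7a1 spans chr4:6265613-6275631 on the minus strand in 6 exons, and Cyp8b1 is a gene of 1 exon at chr9:121914357-121916305. Hsd3b7 (chr7:127800610-127803802) overlaps the coding gene Gm49388 on its own strand and the transcript 9430064I24Rik on the opposite strand in GENCODE M21. No label states whether fragments were assigned by strand, so reads of Hsd3b7 and these neighbours may not be told apart.

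Promoter sequences from RefSeq (GRCm38.p6, the assembly also called mm10) were at hand for 5 of the 10 members, Cyp8b1, Akr1d1, Hsd3b7, Cyp27a1 and Acox2. The 3 shown are those of a gene on which LRH1 is known to act, of the enzyme with the largest fall among these 5, and of one that was not called in any comparison. Each is the 250 bases before the start, written 5′ to 3′ on the gene's own strand. On the plus strand the printed intervals end at 37530172 (Akr1d1) and 127800608 (Hsd3b7), and the deposited starts are 37530174 and 127800610. Plus-strand coordinates may thus be shifted by a base. Capitals mark matches on either strand to letters that LRH1 (CAAGGNCA), HNF4 (CAAAGTCCA) or C/EBP factors (TTGCNNAA) bind, or to the TATA box (TATAAA).
Cyp8b1, chr9:121916306-121916555, minus strand: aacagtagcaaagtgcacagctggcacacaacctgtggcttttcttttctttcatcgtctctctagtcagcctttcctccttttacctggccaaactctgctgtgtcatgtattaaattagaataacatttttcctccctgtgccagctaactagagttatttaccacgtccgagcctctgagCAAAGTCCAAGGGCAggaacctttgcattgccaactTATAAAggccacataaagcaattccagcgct
Akr1d1, chr6:37529923-37530172, plus strand: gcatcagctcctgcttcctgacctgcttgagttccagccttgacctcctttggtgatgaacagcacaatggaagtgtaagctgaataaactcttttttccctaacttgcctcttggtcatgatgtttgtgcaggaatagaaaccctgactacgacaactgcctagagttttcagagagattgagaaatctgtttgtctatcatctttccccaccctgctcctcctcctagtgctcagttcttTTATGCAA
Hsd3b7, chr7:127800359-127800608, plus strand: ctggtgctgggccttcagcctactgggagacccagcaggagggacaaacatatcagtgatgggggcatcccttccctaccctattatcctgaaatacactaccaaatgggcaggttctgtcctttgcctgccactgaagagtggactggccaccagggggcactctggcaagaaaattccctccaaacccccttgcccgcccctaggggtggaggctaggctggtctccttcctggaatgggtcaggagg

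The Cyp8b1 promoter held the HNF4 letters at bases -67 to -59 from the start and the LRH1 letters at -60 to -53, and the 2 matches overlap in the printed run. Its TATA box lay at -31 to -26. Akr1d1 held a C/EBP match in the last 8 bases before its start, and Hsd3b7 held none of the 4 motifs. Acox2 has a pair of promoters, 1 of which held a C/EBP match, and Cyp27a1 held none of the 4 motifs. Among all 32851 promoters of this length, 5.53% held the LRH1 letters, 0.384% the HNF4 letters, 9.56% the C/EBP letters and 12.4% the TATA box. A match describes the letters and says nothing of binding.

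APAP against vehicle asks what acetaminophen did to the pathway. Of the 10 enzymes, 7 fell and 1 rose in APAP livers, where 15.1% of all genes tested were called lower, 47.8% higher and 62.9% in either direction. The groups did not overlap for 7 members that were lower and 1 that was higher, against 16.5% and 50.5% of all genes, and 67.0% in either direction. The median difference was -0.82 over the members and 0.25 over all genes. Those that fell were Cyp7a1, Cyp8b1, Cyp27a1, Akr1d1, Slc27a5, Baat and Amacr, by 1.64-fold to 21.0-fold in mean FPKM, and Cyp7b1 rose.

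Cyp7a1, the rate-limiting enzyme of the classic pathway, had the largest fall of the 10. It stood at 2.21, 1.77 and 1.13 FPKM in APAP livers 1 to 3, against 50.02, 37.7 and 19.7 FPKM in vehicle livers. All APAP livers lay far below all vehicle livers, and the APAP mean was 21.0-fold lower (log2 difference -3.69 ± 0.39 SE, limma adjusted p = 0.000172, n = 3 each). Cyp8b1, which directs synthesis to cholic acid and so sets the composition of the bile acid pool, stood at 132, 73.4 and 75.2 FPKM in APAP livers, against 169.7, 213 and 183 FPKM in vehicle livers. The groups did not overlap, and the APAP mean was 2.02-fold lower (log2 -1.05 ± 0.22, limma adjusted p = 0.00308, n = 3 each).

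Cyp27a1 and Cyp7b1 split in direction. Cyp27a1, the mitochondrial entry enzyme of the alternative pathway, stood at 108, 88.4 and 80.0 FPKM in APAP livers, against 171, 171 and 186 FPKM in vehicle livers. It was 1.91-fold lower without overlap (log2 -0.94 ± 0.13, limma adjusted p = 0.000453, n = 3 each). Cyp7b1, the oxysterol hydroxylase that follows it, was the 1 member that rose, with 74.9, 35.4 and 42.0 FPKM in APAP livers, against 31.6, 28.3 and 21.3 FPKM in vehicle livers. APAP liver 1 was far above the other APAP livers, and the lowest APAP liver was just above the highest vehicle liver (log2 0.83 ± 0.26, limma adjusted p = 0.0217, n = 3 each). This call was lost after upper-quartile scaling (log2 0.56, adjusted p = 0.109), after quantile normalization (0.64, adjusted p = 0.0756) and without vehicle liver 3 (0.67, adjusted p = 0.0789), with adjusted p from 0.0063 to 0.109 over its 21 alternatives.

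The 2 enzymes that act on the steroid ring in sequence behaved differently. Akr1d1, which reduces the double bond of the ring, stood at 16.2, 8.94 and 7.84 FPKM in APAP livers, against 97.6, 81.3 and 81.2 FPKM in vehicle livers. Every APAP liver was far below the lowest vehicle liver, and the APAP mean was 7.88-fold lower (log2 -2.93 ± 0.22, limma adjusted p = 4e-05, n = 3 each). Hsd3b7, the dehydrogenase that acts before it, stood at 230.0, 152 and 210.5 FPKM in APAP livers, against 139, 161 and 161 FPKM in vehicle livers. APAP liver 2 lay within the vehicle range and the other 2 above it. The difference was not called (log2 0.34, 95% interval 0.01 to 0.67, limma adjusted p = 0.0687), came to 0.07 after upper-quartile scaling, and passed without APAP liver 2 (0.52, adjusted p = 0.00263) and after quantile normalization (0.35, adjusted p = 0.0401).

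Of the side-chain and conjugation enzymes, 3 fell and 1 was not called. Slc27a5, which activates bile acids with coenzyme A, stood at 146, 109 and 117 FPKM in APAP livers, against 211, 202 and 202 FPKM in vehicle livers, 1.65-fold lower (log2 -0.73 ± 0.11, limma adjusted p = 0.000711, n = 3 each). Baat, which joins the finished acid to taurine or glycine, stood at 81.6, 49.8 and 63.6 FPKM in APAP livers, against 122, 116 and 125 FPKM in vehicle livers, 1.86-fold lower (log2 -0.91 ± 0.15, limma adjusted p = 0.00119, n = 3 each). Amacr, the racemase that prepares the side chain for oxidation, stood at 42.5, 24.5 and 38.0 FPKM in APAP livers, against 56.6, 61.1 and 54.7 FPKM in vehicle livers, 1.64-fold lower (log2 -0.74 ± 0.17, limma adjusted p = 0.00567, n = 3 each). None of these 3 overlapped between the groups, and APAP liver 2 was the lowest of the 9 libraries for each. Acox2, the peroxisomal oxidase that shortens the side chain, stood at 72.8, 74.0 and 90.0 FPKM in APAP livers, against 71.6, 74.9 and 79.6 FPKM in vehicle livers. The groups overlapped, and the difference lay between -0.14 and 0.27 on the log2 scale (95% interval, limma adjusted p = 0.574). The Acox2 difference was 0.06, and -0.21 after upper-quartile scaling (adjusted p = 0.0745).

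**Figure D1:**
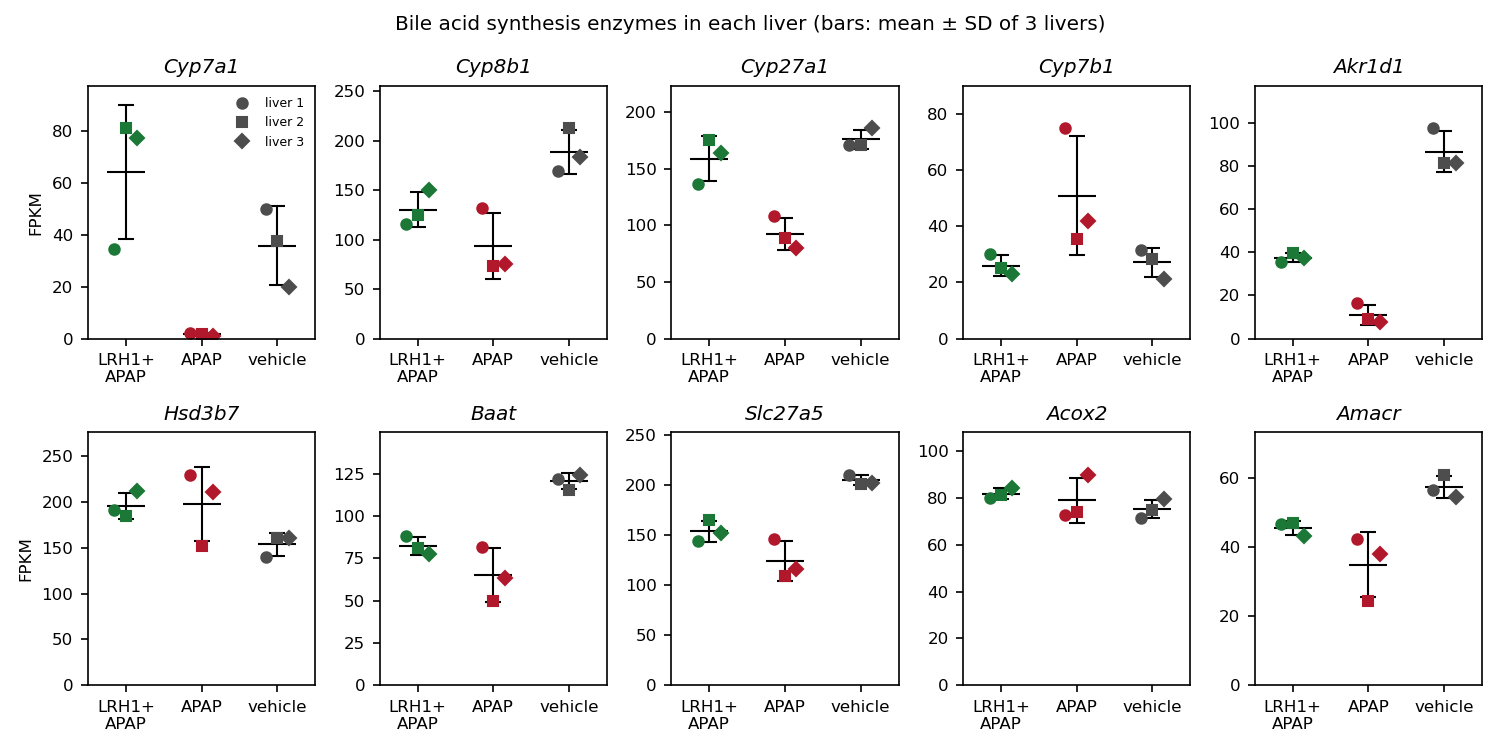
Values of the 10 bile acid synthesis enzymes in FPKM, with 1 panel per gene, 1 point per liver, and a horizontal bar and whiskers for the mean ± SD of 3 livers. Cyp7a1 lies between 1.13 and 2.21 FPKM in APAP livers, below every LRH1+APAP and vehicle liver, while Acox2 stays between 71.6 and 90.0 FPKM in all 9 livers.

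The falls stood beside falls in genes of the hepatocytes around the central vein, where Cyp7a1 is known to be mainly expressed. Of 8 pericentral markers 7 fell and 0 rose, and their summed level was 2059 to 2901 FPKM in APAP livers, against 9455 to 10174.5 FPKM in vehicle livers. Of 8 periportal markers 4 fell and 1 rose, with sums of 1469 to 2252 FPKM in APAP livers, against 2724 to 2783 FPKM in vehicle livers. General hepatocyte markers moved less. Of 7 with values 4 fell and 1 rose, and their sum was 47739.8 to 50432 FPKM in APAP livers, against 51870.3 to 56262 FPKM in vehicle livers. Here and below, such sums mainly follow the genes of highest level. Pericentral Cyp2e1 averaged 2009 FPKM in APAP and 8373 in vehicle livers, periportal Pck1 515 and 1351, and hepatocyte Alb 29779 and 35317. Periportal Cyp2f2 (337 and 353) and Ass1 (0.607 and 0.681) were not called, and Hsd17b13 (646 and 451) was the periportal marker that rose. Of 5 neutrophil markers 4 were tested and 4 rose, with sums of 29.9 to 457 FPKM in APAP livers, against 1.62 to 2.67 FPKM in vehicle livers. Of 5 Kupffer cell markers 4 rose, with sums of 122 to 137 FPKM in APAP livers, against 75.3 to 91.4 FPKM in vehicle livers, and of 4 tested cholangiocyte markers 3 rose. Of these, the neutrophil markers Retnlg and Csf3r and the cholangiocyte markers Epcam and Sox9 averaged under 0.5 FPKM in vehicle livers and passed the filter on low values through the other groups, so their calls support nothing. Of 5 endothelial markers 4 rose, and of 5 stellate cell markers 3 rose. Over all genes tested, 47.8% were called higher and 15.1% lower here, and the stellate count was near the share called higher. The part of these markers in the differences was not tested. In these bulk samples, fewer cells of a type and less RNA per cell cannot be told apart.

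LRH1+APAP against APAP asks which enzymes stood higher once LRH1 was added to the drug. Of the 10 enzymes, 3 rose and 0 fell in LRH1+APAP livers, where 7.13% of all genes tested were called higher, 5.17% lower and 12.3% in either direction. The groups did not overlap for 4 members that were higher and 1 that was lower, against 17.9% and 15.7% of all genes, and 33.6% in either direction. The median difference was 0.39 over the members and -0.01 over all genes. At an unadjusted p under 0.05, 1 member was lower and 7 were higher. Amacr, the weakest of these, ranked 3708 among the 12202 genes tested. At least that many genes thus met the same threshold in either direction. The 3 members called higher after adjustment were Cyp7a1, Akr1d1 and Cyp27a1. The comparison shares its APAP livers with APAP against vehicle, so that opposite signs in the 2 comparisons are not independent of each other.

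Cyp7a1 stood at 34.6, 81.1 and 77.4 FPKM in LRH1+APAP livers, against 2.21, 1.77 and 1.13 FPKM in APAP livers. LRH1+APAP liver 1 was well below the other LRH1+APAP livers, and still far above all APAP livers. The mean was 37.8-fold higher (log2 4.52 ± 0.39, limma adjusted p = 0.00163, n = 3 each), the largest log2 rise among the 12202 genes tested. Within the LRH1+APAP group, the liver with the lowest Cyp7a1 was the one with the highest Nr5a2.

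Akr1d1 stood at 35.7, 39.7 and 37.1 FPKM in LRH1+APAP livers, against 16.2, 8.94 and 7.84 FPKM in APAP livers. It was 3.41-fold higher without overlap (log2 1.74 ± 0.22, limma adjusted p = 0.00424, n = 3 each). Cyp27a1 stood at 137, 176 and 164 FPKM in LRH1+APAP livers, against 108, 88.4 and 80.0 FPKM in APAP livers, 1.73-fold higher without overlap (log2 0.78 ± 0.13, limma adjusted p = 0.0109, n = 3 each). The Cyp27a1 call was lost without LRH1+APAP liver 3 (adjusted p = 0.054) and with the 6 libraries of the 2 groups alone (0.053); its 21 alternatives spanned 0.000935 to 0.054.

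The other 7 were not called. Cyp8b1 stood at 116, 125 and 150.3 FPKM in LRH1+APAP livers, against 132, 73.4 and 75.2 FPKM in APAP livers, with overlap through APAP liver 1 (log2 0.52, 95% interval 0.03 to 1.01, limma adjusted p = 0.135). Slc27a5 stood at 144, 165 and 152 FPKM in LRH1+APAP livers (log2 0.32, adjusted p = 0.0848), and Baat at 88.2, 81.2 and 77.8 FPKM (log2 0.36, adjusted p = 0.138), and both overlapped the APAP livers through APAP liver 1. Amacr stood at 46.7, 47.0 and 43.2 FPKM in LRH1+APAP livers, just above all APAP livers (log2 0.41, 95% interval 0.02 to 0.80, limma adjusted p = 0.139). Without APAP liver 1, which held the highest APAP value of all 4 genes, Cyp8b1, Slc27a5, Baat and Amacr passed as higher (log2 0.80, 0.44, 0.54 and 0.56, adjusted p = 0.00284, 0.00314, 0.00635 and 0.0241), which made 7 members higher in all. Calls grew over all genes as well. Without that liver 2038 genes were called higher and 2604 lower, against 870 and 631 with all 9 libraries. The part of this liver's state in those values was not tested.

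Cyp7b1 was the 1 member with a negative difference. It stood at 30.0, 24.985 and 22.8 FPKM in LRH1+APAP livers, against 74.9, 35.4 and 42.0 FPKM in APAP livers, lower without overlap but not called (log2 -0.88, 95% interval -1.47 to -0.29, limma adjusted p = 0.0589). It passed as lower without APAP liver 1 (-0.56, adjusted p = 0.0354) and without APAP liver 2 (-1.09, adjusted p = 0.0382). Hsd3b7 at 191, 185 and 212 FPKM and Acox2 at 79.9, 81.3 and 84.4 FPKM in LRH1+APAP livers lay within the range of the APAP livers. Their log2 differences had 95% intervals of -0.33 to 0.34 and -0.15 to 0.26.

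Pericentral markers moved in the same direction here as well. Of the 8, 8 rose and 0 fell, with sums of 4639 to 5065 FPKM in LRH1+APAP livers, against 2059 to 2901 FPKM in APAP livers. Neutrophil markers summed to 5.27 to 6.22 FPKM in LRH1+APAP livers, against 29.9 to 457 FPKM in APAP livers, and 2 of 4 tested fell, as did 2 of 5 Kupffer cell and 2 of 5 endothelial markers. General hepatocyte markers had 2 of 7 that fell and 0 that rose, with sums of 47773 to 54009 FPKM in LRH1+APAP livers, against 47739.8 to 50432 FPKM in APAP livers. Over all genes tested, 7.13% were called higher and 5.17% lower. How far the marker moves bear on the enzymes was not tested. The count over all genes, 1501, ran from 210 to 4642 when each of the 9 libraries was left out in turn, and each of these moved it by more than 1.5 times.

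LRH1+APAP against vehicle asks how far the enzymes stood from the undrugged liver. Of the 10, 3 were lower and 0 higher in LRH1+APAP livers, where 8.02% of all genes tested were called lower, 39.2% higher and 47.2% in either direction. The groups did not overlap for 5 members that were lower and 2 that were higher, against 14.5% and 54.6% of all genes, and 69.2% in either direction. The median difference was -0.24 over the members and 0.22 over all genes. At an unadjusted p under 0.05, 4 members were lower and 1 was higher. Hsd3b7, the weakest of these, ranked 6534 among the 12202 genes tested. At least that many genes thus met the same threshold in either direction. The call count over all genes, 5759, was 3826 without LRH1+APAP liver 3. The 3 members that passed were Akr1d1, Slc27a5 and Baat.

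Akr1d1, with 35.7 to 39.7 FPKM in LRH1+APAP livers, against 81.2 to 97.6 FPKM in vehicle livers, was 2.31-fold lower (log2 -1.18 ± 0.22, limma adjusted p = 0.00325, n = 3 each). Slc27a5 was 1.33-fold lower, with 144 to 165 FPKM against 202 to 211 FPKM in vehicle livers (log2 -0.41 ± 0.11, limma adjusted p = 0.0149, n = 3 each). Baat was 1.47-fold lower, with 77.8 to 88.2 FPKM against 116 to 125 FPKM in vehicle livers (log2 -0.55 ± 0.15, limma adjusted p = 0.0185, n = 3 each). Neither Slc27a5 nor Baat overlapped between the groups. The Slc27a5 call was lost without LRH1+APAP liver 1 (adjusted p = 0.0538) or vehicle liver 1 (0.0503), and the Baat call without LRH1+APAP liver 2 or 3 (0.0522 and 0.0657) or vehicle liver 1 or 3 (0.0534 and 0.058). Without vehicle liver 1, Akr1d1 was the 1 member that passed as lower. Of 8 pericentral markers 5 were lower and 1 higher, with sums of 4639 to 5065 FPKM in LRH1+APAP livers, against 9455 to 10174.5 FPKM in vehicle livers, and 2 of 8 periportal and 2 of 7 general hepatocyte markers were lower. Of other cell types, 4 of 5 stellate, 3 of 4 tested cholangiocyte, 2 of 5 Kupffer cell and 1 of 5 endothelial markers were higher and 0 of 4 tested neutrophil markers were called. Of the cholangiocyte markers called, Epcam and Sox9 averaged 0.485 and 0.285 FPKM in vehicle livers. They passed the filter on low values through the other groups, so their calls support nothing. Over all genes tested, 39.2% were called higher and 8.02% lower. The bearing of all these markers on the enzymes was not tested.

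The other 7 were not called. Cyp7a1 had 34.6, 81.1 and 77.4 FPKM in LRH1+APAP livers, against 50.02, 37.7 and 19.7 FPKM in vehicle livers, a mean 1.80-fold higher, with LRH1+APAP liver 1 inside the vehicle range. The difference was not called (log2 0.83, 95% interval -0.06 to 1.72, limma adjusted p = 0.112), and passed without LRH1+APAP liver 1 (1.22, adjusted p = 0.0293). Cyp27a1 overlapped its vehicle values (log2 -0.15, 95% interval -0.44 to 0.13), as did Cyp7b1 (log2 -0.05, 95% interval -0.64 to 0.54). Cyp8b1 and Amacr were below vehicle in every liver without being called (log2 -0.53 and -0.33, limma adjusted p = 0.0723 and 0.147). Hsd3b7 and Acox2 were above vehicle in every liver without being called (log2 0.35 and 0.12, limma adjusted p = 0.079 and 0.302), and Acox2 came to -0.15 after upper-quartile scaling. Hsd3b7 ran from 0.08 to 0.39 over its 21 alternatives, with limma adjusted p from 0.00736 to 0.709. Without APAP liver 1, Cyp8b1 passed as lower and Hsd3b7 as higher (adjusted p = 0.00474 and 0.0404), and without APAP liver 2 Amacr passed as lower and Hsd3b7 as higher (0.00683 and 0.0102), through the spread that the groups share. After upper-quartile scaling, Cyp8b1, Amacr and Cyp27a1 also passed as lower (log2 -0.80, -0.59 and -0.42, adjusted p = 0.0238, 0.0343 and 0.0405).

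**Figure D2:**
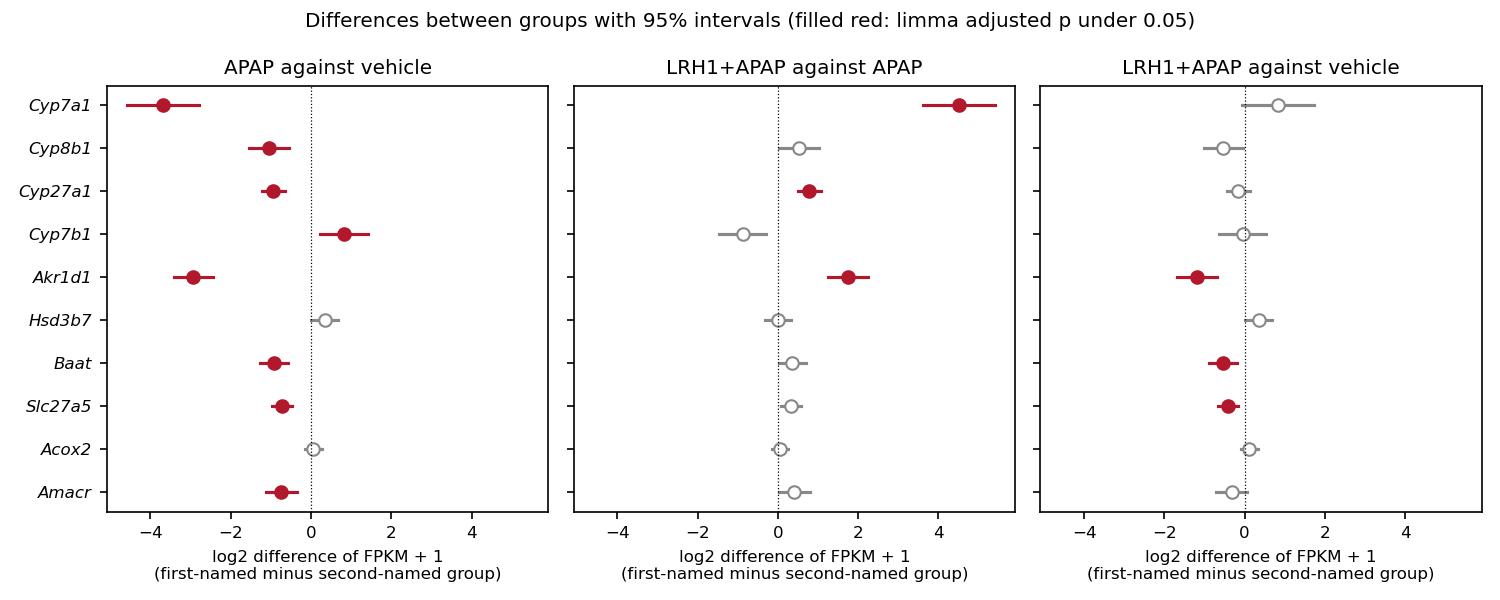
Differences of log2(FPKM + 1) for the 10 enzymes in the 3 comparisons, as points with 95% limma intervals, in filled red where the adjusted p was under 0.05. Cyp7a1 has the largest differences, -3.69 for APAP against vehicle and 4.52 for LRH1+APAP against APAP, and Akr1d1 is the only member called in all 3.

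Cyp7a1, the start of the classic pathway, was set against Cyp7b1 and against Cyp27a1 within each liver. The ratio of Cyp7a1 to Cyp7b1, in FPKM, was 1.15, 3.25 and 3.39 in LRH1+APAP livers, 0.0295, 0.0499 and 0.0269 in APAP livers, and 1.58, 1.33 and 0.925 in vehicle livers. APAP livers thus stood apart, with a higher FPKM for Cyp7b1 than for Cyp7a1 in all 3, while the other groups overlapped. On the log2 scale of FPKM + 1, the difference between the genes was 4.52 lower in APAP than in vehicle livers, averaging -4.21 ± 0.44 in APAP and 0.31 ± 0.38 in vehicle livers (SD, n = 3 each, exact permutation p = 0.1, adjusted p = 0.15). It was 5.40 higher in LRH1+APAP than in APAP livers (exact permutation p = 0.1, adjusted p = 0.15) and 0.88 higher than in vehicle livers (exact permutation p = 0.3, adjusted p = 0.3).

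The ratio of Cyp7a1 to Cyp27a1 gave a like order. It was 0.253, 0.462 and 0.472 in LRH1+APAP livers, 0.0205, 0.02 and 0.0141 in APAP livers, and 0.293, 0.22 and 0.106 in vehicle livers. APAP livers were again below all others. The log2 differences between groups were -2.76 for APAP against vehicle and 3.74 for LRH1+APAP against APAP (exact permutation p = 0.1, adjusted p = 0.15 for each), and 0.98 for LRH1+APAP against vehicle (exact permutation p = 0.2, adjusted p = 0.24). These tests are two-sided, the adjustment covers the 6 of them, and 3 livers against 3 cannot give a p below 0.1. Both ratios hold Cyp7a1, whose log2 differences were larger in size than those of Cyp7b1 and Cyp27a1 in each comparison. Their like order therefore mainly follows from the Cyp7a1 values given above and is no separate result.

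**Figure D3:**
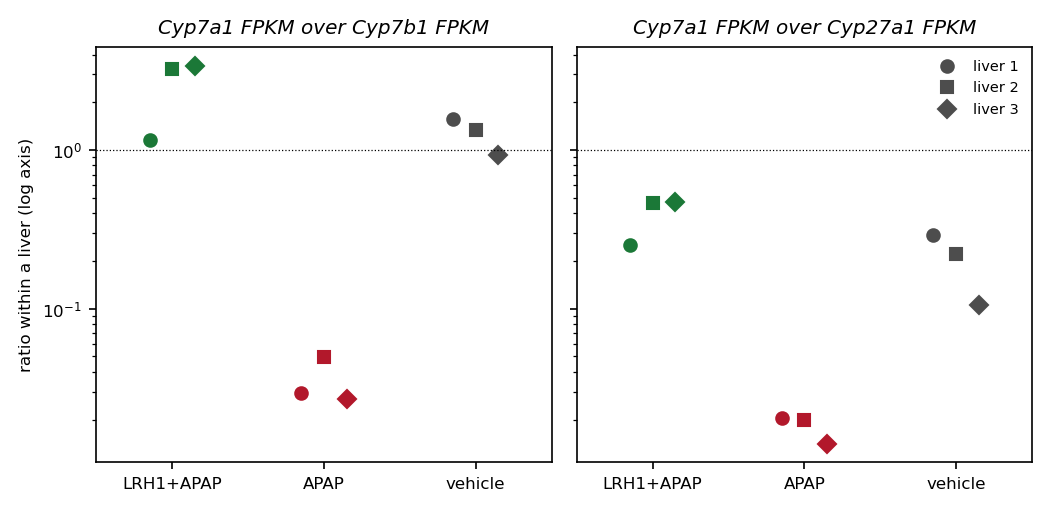
Ratio of Cyp7a1 to Cyp7b1 and of Cyp7a1 to Cyp27a1 in FPKM within each liver, on a log axis with the dotted line at 1, with 1 point per liver in each group. The APAP livers lie between 0.0141 and 0.0499 in both panels, below all LRH1+APAP and vehicle livers.

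Hsd3b7 and Acox2 were the members with more than 1 transcript model. The shorter Hsd3b7 model held between 10.1% and 11.5% of the gene's FPKM in LRH1+APAP livers, between 10.4% and 12.5% in APAP livers, and between 8.59% and 14.1% in vehicle livers. The minor Acox2 model held between 0.507% and 6.52% in LRH1+APAP livers, with the highest share in liver 2, between 0.643% and 0.971% in APAP livers, and between 0.525% and 1.58% in vehicle livers. Shares overlapped between all groups for both genes.

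Among 14 other genes of bile acid synthesis, 8 fell and 1 rose in APAP against vehicle livers, with a median of -0.49. Of all genes tested, 15.1% were called lower and 47.8% higher there. Akr1c14, a hydroxysteroid dehydrogenase that acts on the ring after Akr1d1, stood at 68.5, 15.3 and 22.02 FPKM in APAP livers, against 201, 192 and 152 FPKM in vehicle livers (log2 -2.61, limma adjusted p = 0.00122). Por, which passes electrons to the microsomal P450 enzymes of the pathway, fell by 0.70 (adjusted p = 0.00023), and the peroxisomal genes Hsd17b4, which acts on the side chain before it is cleaved, and Abcd3, a transporter, fell by 0.57 and 0.70 (adjusted p = 0.00185 and 0.0033). The 1 that rose was Ch25h, a cholesterol hydroxylase known from macrophages, named after its values were seen. It stood at 0.916, 19.8 and 4.70 FPKM in APAP livers, against at most 0.0298 FPKM in vehicle livers (log2 2.57, adjusted p = 0.00982), so that APAP liver 2, the liver of highest neutrophil marker S100a8, also led here. Ch25h passed the filter on low values through its APAP livers alone, so it had to differ, and its call supports nothing.

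In LRH1+APAP against APAP livers, 2 of the 14 rose and 0 fell, with a median of 0.04. The shares over all genes tested were 7.13% higher and 5.17% lower. Akr1c14 stood at 129, 136 and 138 FPKM in LRH1+APAP livers, against 68.5, 15.3 and 22.02 FPKM in APAP livers (log2 2.19, limma adjusted p = 0.0202), and Por rose by 0.39 (adjusted p = 0.0214). Neither call held with the 6 libraries of the 2 groups alone (0.074 and 0.0729) or without LRH1+APAP liver 1 (0.0567 and 0.0686), LRH1+APAP liver 2 (0.0726 and 0.086) or APAP liver 3 (0.0673 and 0.0609), and without LRH1+APAP liver 3 Akr1c14 was lost too (0.0785). Against vehicle livers, 7 of the 14 were lower and 0 higher in LRH1+APAP livers, with a median of -0.36, where 8.02% of all genes tested were called lower and 39.2% higher. Slc27a2, an acyl-CoA synthetase that activates the side chain, Abcd3, Hsd17b4 and Fdxr, the reductase that supplies electrons to Cyp27a1, fell by 0.63, 0.58, 0.45 and 0.35 (limma adjusted p = 0.00722, 0.0118, 0.00877 and 0.0121). That count was 4 without LRH1+APAP liver 3 or vehicle liver 2.

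Among 20 regulators of the pathway, 7 fell and 3 rose in APAP against vehicle livers, with a median of -0.25. Of all genes tested, 15.1% were called lower and 47.8% higher, so rises were rarer in this list than over all genes. Nr0b2 stood at 15.5, 4.51 and 19.9 FPKM in APAP livers, against 24.9, 36.1 and 21.7 FPKM in vehicle livers (log2 -1.18, limma adjusted p = 0.0411). Its call was lost without any 1 of the vehicle or LRH1+APAP livers (adjusted p from 0.0556 to 0.128) and with 6 libraries in the fit (0.0802). Nr1h4 was not called (log2 -0.55, adjusted p = 0.231), but passed without APAP liver 1 (log2 -0.95, adjusted p = 0.0239). Nr5a2 was not called either (log2 -0.37, adjusted p = 0.257) but passed with 6 libraries in the fit (0.0207) and without LRH1+APAP liver 1 (0.037). The 3 that rose were the clock-linked repressors Nfil3 and Nr1d1 and the RNA-binding protein Zfp36l1, which is known to destabilise Cyp7a1 message in mice. They rose by 2.08, 2.68 and 1.48 (adjusted p = 5.73e-05, 0.000672 and 0.000947). Mafg, a repressor of bile acid synthesis genes in mice, fell by 0.42 (adjusted p = 0.00153).

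In LRH1+APAP against APAP livers, 4 of the 20 rose and 0 fell, with a median of 0.30. The shares over all genes tested were 7.13% higher and 5.17% lower. The 4 include Nr5a2 itself (log2 3.50, limma adjusted p = 0.00102), which encodes the LRH1 that was given. Its rise follows from the treatment, and native and delivered transcripts were not told apart. Mafg, Klb and Nfil3 rose by 0.54, 1.13 and 0.64 (adjusted p = 0.00632, 0.0256 and 0.0401). Klb, the coreceptor through which the gut hormone FGF15 represses Cyp7a1 in mice, stood at 13.1, 12.0 and 14.1 FPKM in LRH1+APAP livers, against 8.94, 3.56 and 4.76 FPKM in APAP livers. The groups did not overlap. The Nfil3 call was also lost without APAP liver 2 (0.0711), vehicle liver 1 (0.051) or vehicle liver 2 (0.0552). Both the Klb and the Nfil3 calls were lost without any 1 of the LRH1+APAP livers (adjusted p from 0.0705 to 0.0919 and from 0.0878 to 0.131) and without APAP liver 3 (0.08 and 0.111), and the count of regulators was 8 without APAP liver 1 and 2 without APAP liver 3 or any 1 of the LRH1+APAP livers. Nr0b2 at 17.8, 21.98 and 23.4 FPKM and Nr1h4 at 57.5, 40.0 and 42.3 FPKM in LRH1+APAP livers were not called against APAP livers (adjusted p = 0.218 and 0.587) or vehicle livers (0.527 and 0.631).

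Against vehicle livers, 5 of the 20 were higher and 3 lower in LRH1+APAP livers, with a median of -0.10. Of all genes tested, 39.2% were called higher and 8.02% lower, so higher calls were rarer in this list than over all genes. Nfil3, Nr5a2, Nr1d1 and Zfp36l1 rose by 2.73, 3.13, 2.53 and 1.29 (limma adjusted p = 1.35e-05, 7.74e-05, 0.00153 and 0.00314). For Nr5a2, the gene of the LRH1 given, the rise again follows from the treatment. The other call among the higher was Foxa2 (log2 0.78, adjusted p = 0.0118), lost after upper-quartile scaling (0.0752) and quantile normalization (0.109). Those called lower were Nr1i2, Dbp and Prox1 (log2 -0.74, -1.45 and -0.38, limma adjusted p = 0.0233, 0.0302 and 0.0314). These 4 were named after their values were seen. The Dbp call was lost without any 1 of the LRH1+APAP or vehicle livers (adjusted p from 0.0548 to 0.102) and with no filter on low values (0.0527). The Nr1i2 call was lost without LRH1+APAP liver 2 or 3 or any 1 of the vehicle livers (from 0.054 to 0.0789), and the Prox1 call without any 1 of the LRH1+APAP livers or vehicle liver 1 (from 0.0574 to 0.0971). The count was 5 without LRH1+APAP liver 2 or 3 or vehicle liver 1.

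**Figure D4:**
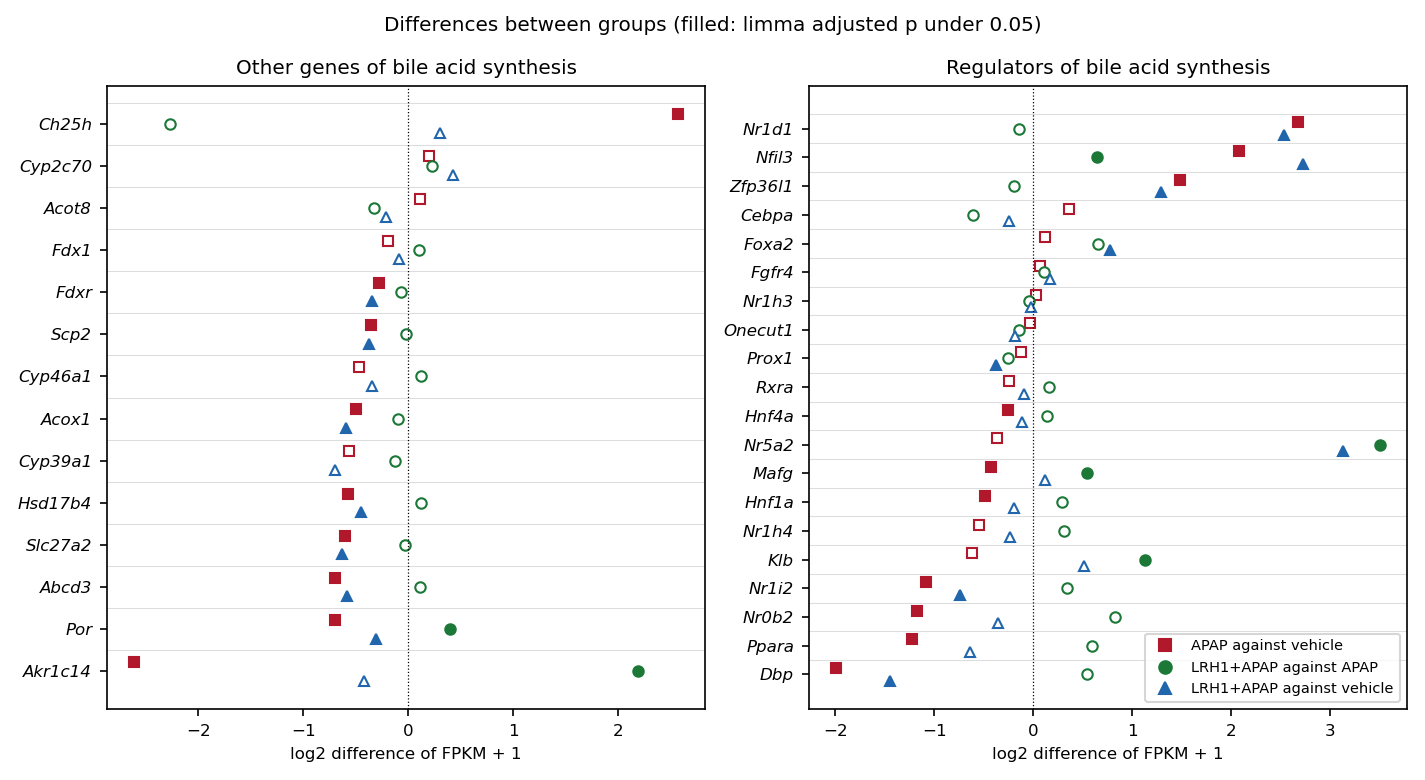
Differences of log2(FPKM + 1) for 14 other genes of bile acid synthesis and 20 regulators in the 3 comparisons, with 1 row per gene, ordered by APAP against vehicle, and filled symbols where the limma adjusted p was under 0.05. Akr1c14 lies at -2.61 for APAP against vehicle and at 2.19 for LRH1+APAP against APAP, and Nr5a2 at 3.50 and 3.13 in the 2 LRH1+APAP comparisons.

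Likeness of pattern was described by Pearson's r of log2(FPKM + 1) over the 9 livers, among the 6834 other genes averaging 5 FPKM or more. The livers form 3 groups, so these r are high for any pair of genes that share the order of the groups. Cyp7a1 was most like Mafg (r = 0.994), Adap2 (0.971) and Prkag2 (0.97). Akr1d1 was most like Erap1 (0.997), the pericentral marker Rgn (0.994) and Slc29a1 (0.994). Cyp8b1 was most like Epb41l5 (0.985), Setd3 (0.984) and Aaed1 (0.977). Among the members, r was 0.964 for Akr1d1 with Slc27a5 and for Baat with Slc27a5, 0.908 for Cyp7a1 with Cyp27a1, and -0.73 for Cyp7a1 with Cyp7b1.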

How the data were processed

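Per the labels' protocols, Trizol was used to isolate RNA from liver kept in RNAlater, and TruSeq mRNA kits to build libraries. The deposited values are the authors' FPKM, with 1 column per liver, for 36779 transcript models on mm10. Per the submitters' processing notes, which give no roles, StringTie 1.3.3b, Bowtie2 2.2.6 and FastQC 0.10.0 were used. FPKM was summed per symbol, and the 12202 of 24541 symbols with a mean of at least 0.5 FPKM were tested. The pseudocount was 1. In limma 3.58.1 (R 4.3.3), 1 mean per group was estimated from all 9 libraries (intensity trend, 6 residual degrees of freedom, two-sided). This fit was also run on simulated data in which the groups had the same spread for each gene. In the real livers the median coefficient of variation was 13.0% in APAP, 5.87% in LRH1+APAP and 5.72% in vehicle livers (genes averaging 5 FPKM or more). The simulation therefore cannot check the spread that the groups share in the fit. The data.table package (1.17.8) read the data, and figures were drawn with matplotlib 3.10.9 in Python 3.11.15. Exact permutation tests compared gene ratios.

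Depth is unknown: at the best-fitting depth, 32.8% to 37.1% of low values lay within 0.05 of a whole number of fragments, so counts were not recovered and precision rests on the spread between livers. The labels number the livers of each group 1 to 3 and give no animals, so p-values measure the spread between these livers. The members, the lists of 14 genes and 20 regulators and the cell markers were chosen with earlier results of these data known, as were the motifs. All members were named in each comparison. From the lists, Nr5a2, Nr0b2 and Nr1h4 and the 4 called genes of smallest p in each list were named. Of the marker genes, 7 of 8 for hepatocytes were used here, and the enterocyte and pancreas markers Cela2a, Cpa1 and Prss2 were at 0 in all livers.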

Additional observations from a re-analysis of the deposited data

How the results depend on the processing

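Of the 630 results of single members under alternatives, 591 kept their direction and side of the threshold, 11 lost a call, 21 gained one, and 7 changed sign, none of them called before or after. Of 2133 results of the other listed genes, 1938 kept both, 91 lost a call, 56 gained one, and 48 changed sign, again without a call on either side. The count of members lower in APAP than in vehicle livers stayed at 7 under every alternative run. The cause of the changes below was not tested. With a mean of at least 5 FPKM, 4746 genes were called for APAP against vehicle (7680 otherwise) and 3671 for LRH1+APAP against vehicle (5759 otherwise). After upper-quartile scaling 0 members were higher in APAP against vehicle and 6 lower in LRH1+APAP against vehicle, and after quantile normalization 1 was higher in the last. Upper-quartile scaling turned the sign of Acox2 and Foxa2 in APAP against vehicle (-0.21 and -0.12) and of Acox2 and Mafg in LRH1+APAP against vehicle (-0.15 and -0.15). Quantile normalization turned Foxa2 in the first (-0.19) and Ch25h and Mafg in the last (-0.068 and -0.077). With the 6 libraries of the groups compared, LRH1+APAP against APAP had 263 genes called (1501 otherwise) and 0 other synthesis genes. LRH1+APAP against vehicle then had more genes called, 6076 higher and 1502 lower (4780 and 979 otherwise), with 5 members lower and 1 higher.

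Same-numbered livers did not deviate together (r from -0.14 to 0.07, 1 of 9 livers closest to its own number), so the numbers do not pair the livers. With the replicate number as a block, LRH1+APAP against APAP had 807 genes called and 1 member lower, Cyp7b1.

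Leaving out 1 library at a time gave, for APAP against vehicle, 6576 to 8436 genes, 0 to 2 members higher, 6 to 11 other synthesis genes and 8 to 13 regulators called. For LRH1+APAP against APAP it gave 210 to 4642 genes, 2 to 7 members higher, 0 to 1 lower, 0 to 3 other synthesis genes and 2 to 8 regulators. For LRH1+APAP against vehicle it gave 3826 to 7053 genes, 1 to 4 members lower, 0 to 1 higher, 4 to 9 other synthesis genes and 5 to 10 regulators. The sign turned within these ranges for Acox2 (-0.036 to 0.12) and Foxa2 (-0.091 to 0.25) in APAP against vehicle and for Cyp7b1 (-0.21 to 0.065) in LRH1+APAP against vehicle. In LRH1+APAP against APAP it turned for Hsd3b7 (-0.17 to 0.13), Nr1d1 (-0.51 to 0.22), Fdxr (-0.13 to 0.019), Slc27a2 (-0.17 to 0.12), Abcd3 (-0.065 to 0.25), Dbp (-0.054 to 1.04), Nr1h4 (-0.11 to 0.72) and Zfp36l1 (-0.37 to 0.082). Depth is unknown, so no limit can be set from it.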
